A study of Zygosaccharomyces parabailii with 12 samples.

Results

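The transcriptional response of Zygosaccharomyces parabailii to lactic acid in exponential phase was measured in 5 of the 12 RNA-seq libraries of the study: 3 lactic acid libraries of 18 h (LA18, replicates 1, 2 and 3) and 2 control libraries of 18 h (C18, replicates 1 and 3). They were chosen by the time and condition in their labels, and the other control library of 18 h (replicate 2) was left out because it held only 4606 counts. Both groups were the same strain, ATCC60483, a hybrid yeast that carries A genes from Z. bailii and B genes from another Zygosaccharomyces parent. The cells grew on glucose in bioreactors in a defined mineral medium at pH 3 under microaerobic conditions. LA18 differed from C18 by 40 g per liter of lactic acid in that medium. The paper cites earlier work of its authors in which lactic acid lowered the growth rate and the rate of glucose consumption. Each condition was sampled in triplicate during the fermentation, and the sources do not say that the triplicates came from separate cultures. The p-values therefore weigh a difference against a spread between libraries that may be technical. That spread was estimated in 1 model of 4 groups and 11 libraries, those of 42 h included. Gene IDs end in A or B where the parent of the gene was assigned and in N where it was not, and the copies of one gene from the A and B parents are called homeologs.

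Lactic acid is a weak acid. At low pH much of it is undissociated, crosses the plasma membrane and releases its proton in the cytosol, and yeasts spend ATP on proton pumps of the plasma membrane and the vacuole to remove it. Z. bailii and its hybrids are known as spoilage yeasts of acid foods with weak acid preservatives. In Saccharomyces cerevisiae, weak acids engage the transcription factor Haa1 and the anion exporter Pdr12, and lactic acid the iron regulon of Aft1. The comparison asks which genes of Z. parabailii change their transcript level under high lactic acid while the cells still grow exponentially.

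Values are CPM, read counts relative to the library size as scaled by the TMM method. After entries for pseudogenes and plasmids were left out the total counts were 13422026 and 17505293 in C18 and 11673572 to 14148379 in LA18, and 9683 genes were tested. Genes count as upregulated or downregulated where the adjusted p was below 0.05 (edgeR quasi-likelihood test, two-sided, Benjamini-Hochberg) and the log2 fold change reached 1 in size, and as higher or lower where the adjusted p passed, whatever the size. With lactic acid 412 genes were upregulated (4.25% of those tested) and 2000 downregulated (20.7%), while 3442 (35.5%) were higher and 3413 (35.2%) lower. The calls were thus mostly downward, with 17.1% of them upward. This split depended on the scaling, since library totals without TMM gave 1041 upregulated and 1612 downregulated genes (39.2% upward), and the median of the log2 fold changes was 0.068 with TMM and 0.28 with library totals. Libraries of the groups did not overlap in 2405 of the 2412 genes called (24.9% of those tested). Over all genes tested they did not overlap in 42.7% that were higher and in 39.4% that were lower.

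The response also varied with gene length. The median log2 fold change was 0.52 in the shortest of 5 about equal groups of genes by length (up to 681 bp) and -0.80 in the longest (from 2085 bp). In the shortest group 9.24% of the genes were upregulated and 5.03% downregulated, and in the longest 0.259% and 42.2%. Across the 9683 genes Spearman's rho of log2 fold change and length was -0.497, a description only, since genes of the same libraries are not replicates. Gene length and CPM had a rho of 0.329 and 0.38 in the C18 libraries and of 0.103 to 0.115 in the LA18 libraries. After a smooth trend of length was removed from every library, 705 genes were upregulated and 1240 downregulated (36.2% of the calls upward, median of all genes 0.16). The part of the length relation in the results was not tested, and values after its removal are given below beside most counts of gene groups.

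**Figure D1:**
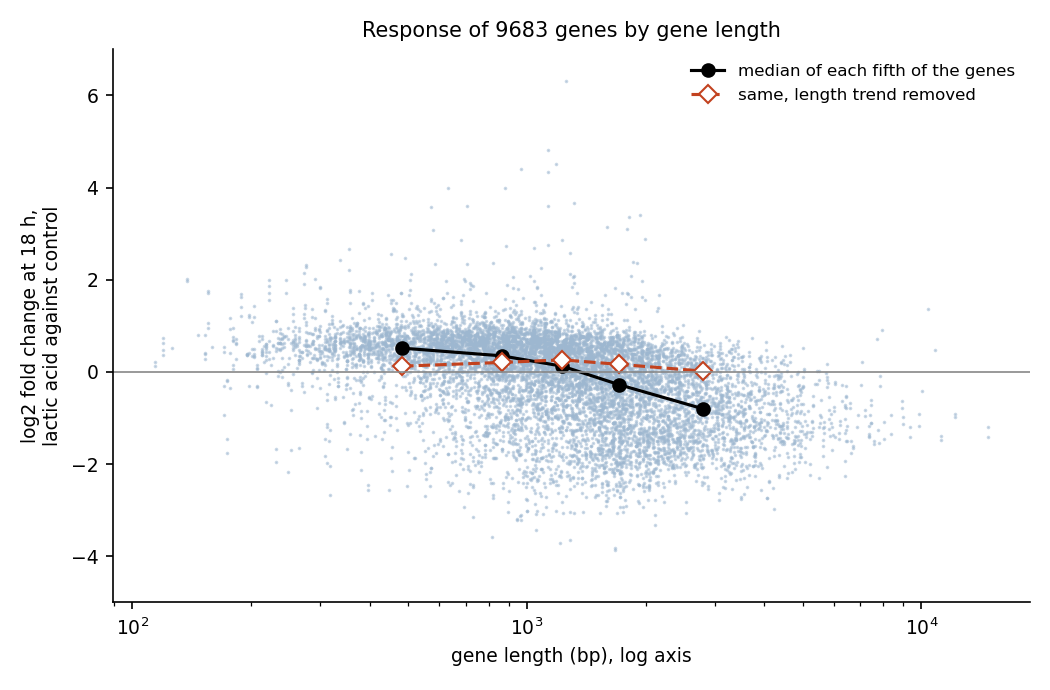
Log2 fold change at 18 h (lactic acid against control, vertical axis) of the 9683 genes tested against gene length in bp (log axis). The medians of the 5 groups of genes by length fall from 0.52 to -0.80, and after removal of the length trend they lie between 0.018 and 0.26.

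Replicate 3 of LA18 stood somewhat apart from the others. Of 8576 genes with a mean of at least 10 CPM, 61 were at least 2-fold away from the other LA18 libraries in replicate 3, against 2 in replicate 1 and 3 in replicate 2, and 30 differed as much between the C18 libraries.

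Formate dehydrogenase genes led the response. The enzyme oxidizes formate to carbon dioxide and passes the electrons to NAD+. The study calls the Z. parabailii genes FDH-like and states that none has been shown to have this activity. All 6 annotated genes were upregulated, by a log2 fold change of 2.76 to 6.32, and 4 of them were among the 12 genes with the largest increase. The study singled these genes out on the same samples, so their common direction is not independent of that choice. I01900_B had 2.98 and 3.90 CPM in control and 247, 249.8 and 339 CPM with lactic acid, an increase of 79.9-fold (log2 fold change 6.32 ± 0.25, adjusted p = 4.24e-08). The error is an approximate standard error, the size of the log2 fold change over the root of the F statistic. Every LA18 library was far above both C18 libraries, and the A gene O01850_A, with 13.2 and 14.5 CPM in control and 167, 162 and 203 CPM with lactic acid, rose by a log2 of 3.67 ± 0.17.

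The other 4 formate dehydrogenase genes share a length of 1131 bp. N02280_N had 3.06 and 3.84 CPM in control and 95.04, 97.2 and 103 CPM with lactic acid (log2 4.82 ± 0.42). F04070_N had 1.74 and 1.89 CPM in control and 32.7, 36.2 and 41.6 CPM with lactic acid (log2 4.33 ± 0.22). The remaining members were at low levels even with lactic acid: H05680_N had 0.496 and 0.296 against 3.71, 5.49 and 4.97 CPM (control first, log2 3.6 ± 0.45), and P02220_N had 0.496 and 0.532 against 4.05, 2.68 and 3.96 CPM (log2 2.76 ± 0.31). No LA18 library overlapped a C18 library for any of the 6 genes. The authors discarded reads that fit more than one place, so the split of the signal among near-identical members of the family is uncertain. After removal of the length trend all 6 were still upregulated, with a median log2 of 4.13 against 4.0.

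**Figure D2:**
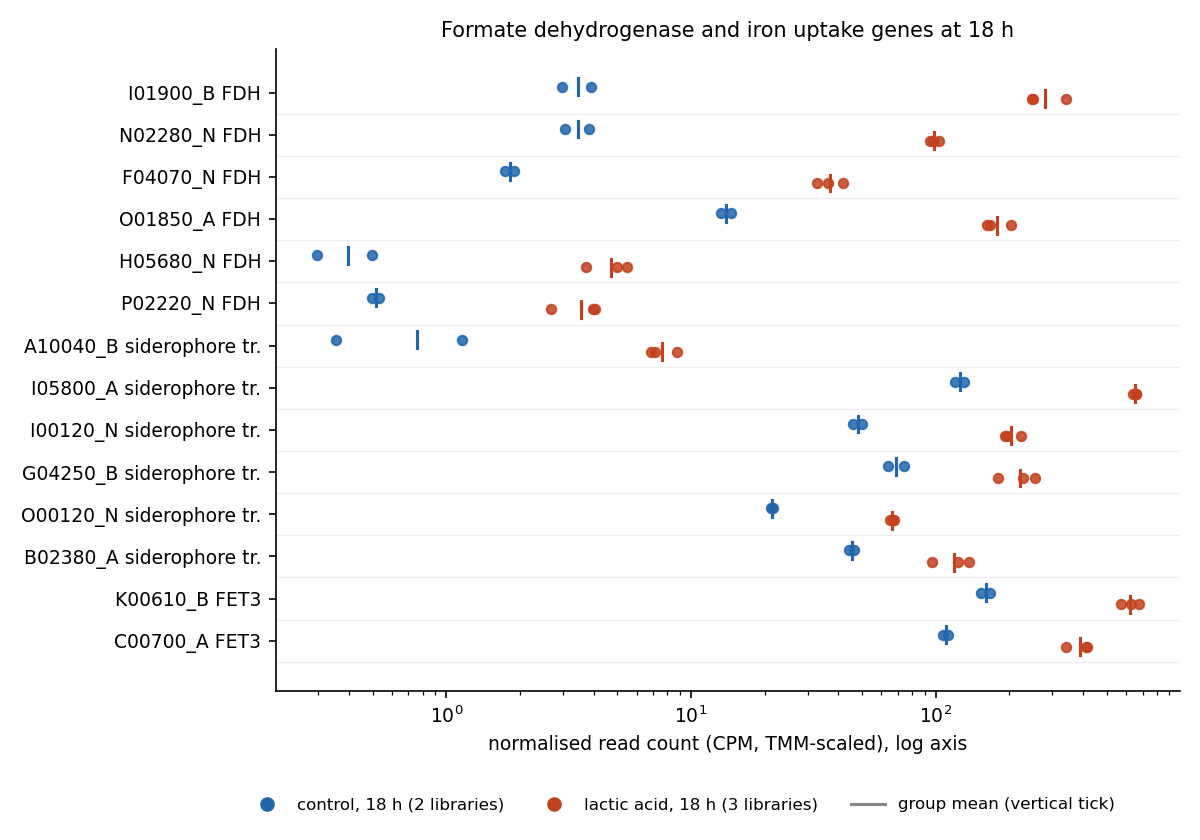
CPM at 18 h (horizontal log axis) of the formate dehydrogenase (FDH) genes and of iron uptake genes in each of the 2 control and 3 lactic acid libraries (points), with group means (ticks). The lactic acid libraries lie above the control libraries for every gene shown, with the widest gap for I01900_B (2.98 and 3.90 against 247, 249.8 and 339 CPM).

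Transporters and a cyclin were among the other leading genes. F06230_N and N00190_A are annotated as fructose facilitators. The paper places both in a family that carried fructose and glucose on overexpression in S. cerevisiae. F06230_N had 69.3 and 58.5 CPM in control and 601, 624 and 409.5 CPM with lactic acid (log2 3.09 ± 0.22, adjusted p = 6.51e-07), and N00190_A, at a low level, had 1.16 and 1.42 against 14.5, 15.9 and 10.01 CPM (log2 3.36 ± 0.29). The libraries of the groups were fully apart for both genes. Such an increase was not general to the annotation. D07340_B and K04890_B, also annotated as fructose facilitators but counted apart because of an identical copy, were downregulated (log2 -1.12 ± 0.18 and -1.12 ± 0.17). These values are on the scale of the duplicated counts alone, unlike those of F06230_N and N00190_A. Reads of identical copies are placed at random, so the values of these copies are not independent. For O04100_A, a further member of the family, the paper reports no significant change. F06180_N, annotated as a multidrug transporter of the major facilitator superfamily, had 1.90 and 1.48 against 14.3, 16.8 and 13.5 CPM (log2 3.15 ± 0.22). D07410_N, for which no name is at hand, had 91.8 and 171 against 3341, 2862 and 2179 CPM, and its error was the widest of the 24 leading genes (log2 4.41 ± 1.32, adjusted p = 0.0104). Without C18 replicate 1 or 3 it no longer passed the edgeR test (adjusted p = 0.0792 and 0.0528).

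LA18 replicate 3 was the lowest lactic acid library in the following 5 genes, as it was in F06230_N and N00190_A. Both homeologs of PCL5, a cyclin of the Pho85 kinase that takes part in degradation of the amino acid regulator Gcn4 in S. cerevisiae, rose. K00700_B had 9.92 and 9.82 against 155, 162 and 38.96 CPM (log2 3.59 ± 0.51) and C00790_A had 24.8 and 16.1 against 223, 235 and 58.1 CPM (log2 3.08 ± 0.50). F06100_B, annotated as an acetyltransferase of the GNAT type, had 8.02 and 4.61 against 97.5, 96.9 and 29.6 CPM (log2 3.59 ± 0.66), its homeolog N00280_A had 21.99 and 15.6 against 116, 119.7 and 49.3 CPM (log2 2.35 ± 0.35), and O04160_N, an uncharacterized gene, had 1.41 and 0.651 against 28.9, 29.2 and 9.16 CPM (log2 4.52 ± 0.81). Replicate 3 was still above both controls in all 5 genes.

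Siderophore transporter and FET3 genes were upregulated, and homologs of the iron regulators AFT1 and AFT2 were downregulated. All 6 siderophore transporter genes named by the study were upregulated (median log2 1.88, and 2.45 with the length trend removed), again a list chosen on these samples. Siderophore transporters import iron bound to chelators made by microbes. I05800_A had 119.6 and 131 CPM in control and 661, 642 and 659 CPM with lactic acid (log2 2.38 ± 0.16), and the least changed of them, B02380_A, had 46.4 and 44.4 against 136, 124 and 96.2 CPM (log2 1.39 ± 0.14). The LA18 libraries were above the C18 libraries for all 6.

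Both homeologs of FET3, the multicopper oxidase of high-affinity iron uptake, were upregulated. K00610_B had 153 and 167 against 573, 675 and 626 CPM (log2 1.96 ± 0.13) and C00700_A had 113 and 107 against 411, 416 and 341 CPM (log2 1.83 ± 0.16). HMX1, the heme oxygenase that frees iron from heme, looked up after the values were seen, rose by a log2 of 2.07 ± 0.33 (D01560_B) and 1.81 ± 0.39 (N04820_A). The genes C01350_N and K01260_N, homologs of the iron regulators AFT1 and AFT2, were downregulated, with 83.7 and 76.3 against 30.8, 31.03 and 24.4 CPM (log2 -1.47 ± 0.40) and 102 and 104 against 29.8, 33.4 and 28.1 CPM (log2 -1.76 ± 0.48).

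Of 10 further genes of iron uptake and Aft1/Aft2 targets in the annotated part of the genome at hand, 1 was upregulated, 2 were downregulated and 6 were higher (median log2 0.78). Lists of this kind were counted only over genes of that part, in which 3.6% of 3412 genes tested were upregulated and 19.8% downregulated, and other genes are named without being counted, because their names are known from the study's lists of changed genes. The genes downregulated were the homeologs of AKR1, a palmitoyltransferase, and the one upregulated was B07350_A, a homolog of TIS11, which promotes decay of transcripts for iron-using proteins (64.6 and 61.03 against 157, 168 and 148 CPM, log2 1.33 ± 0.13). FTH1 and SMF3, transporters of the vacuole membrane, were higher, with a log2 of 1.0 and 0.97 for FTH1 and of 0.79 and 0.77 for SMF3. The count of genes upregulated was 3 without C18 replicate 1 and without LA18 replicate 3. With the length trend removed 6 of the 10 genes were upregulated and 1 downregulated, with a median of 1.08. The background moved too: of the 3412 annotated genes 245 were upregulated and 421 downregulated in that setting, against 123 and 676 before. List counts with the trend removed are to be read against these numbers.

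Most nuclear genes of the respiratory chain and the ATP synthase rose. Of 26 genes tested 17 were upregulated and 1 downregulated (median log2 1.26). ATP4, a subunit of the stator stalk of the ATP synthase, had 129 and 136 CPM in control and 480.3, 472 and 563 CPM with lactic acid for A04560_B (log2 1.93 ± 0.19, adjusted p = 7.26e-06), and its homeolog E04340_A rose by 1.8 ± 0.19. INH1, the inhibitor of ATP hydrolysis by that enzyme, had 37.4 and 35.4 against 138, 138 and 159 CPM for B01120_A (log2 1.99 ± 0.16) and rose by 1.71 ± 0.15 in G05510_B. ATP14, another subunit, rose by 1.78 ± 0.17 (A03390_B) and 1.74 ± 0.16 (E05500_A). The libraries of the groups did not overlap for these 6 genes. The exception was NDI1, the internal NADH dehydrogenase of the inner membrane, with 62.4 and 67.00 against 31.04, 29.5 and 32.4 CPM for the downregulated G03030_B (log2 -1.06 ± 0.32). It no longer passed the edgeR test without C18 replicate 3 (adjusted p = 0.0572).

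Most of these genes are short, with a median length of 309 bp, and with the length trend removed 7 of the 26 were upregulated and none downregulated (median 0.81). ATP4, INH1 and ATP14 were upregulated in that setting too, in both homeologs. Of the 13 genes of the mitochondrial genome 8 were higher, against 35.5% of all genes tested, and none was lower. Only 3 were upregulated. The median log2 was 0.81, and 0.64 to 1.03 over all settings. Mitochondrial genes held 1.38% and 0.935% of the counts in C18 against 2.76% to 2.81% in LA18.

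Genes of the tricarboxylic acid cycle changed in both directions. Both homeologs of IDH1, a subunit of the NAD-dependent isocitrate dehydrogenase, were upregulated, with 52.00 and 65.6 against 248, 253 and 347 CPM for B03070_A (log2 2.26 ± 0.22) and 56.8 and 69.4 against 170.3, 171 and 262 CPM for G03560_B (log2 1.67 ± 0.22). Both homeologs of SDH1, the flavoprotein of succinate dehydrogenase, were downregulated, with 281 and 288 against 69.04, 70.8 and 80.1 CPM for B08720_A (log2 -1.96 ± 0.38) and 227 and 243 against 91.1, 80.4 and 90.9 CPM for A08700_B (log2 -1.43 ± 0.25). SDH2, the iron-sulfur subunit of the same complex, was higher by 0.79 (B02550_A) and 0.9 (G04080_B). Of 12 genes of the cycle 2 were upregulated (16.7%, against 3.6% of all annotated genes) and 3 downregulated (25%, against 19.8%). With the length trend removed the counts were 3 and 1, when A08700_B fell short of the fold threshold (-0.87).

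Antioxidant genes changed in both directions. SOD2, the superoxide dismutase of mitochondria, had 66.5 and 53.6 against 171, 172 and 182 CPM for C04820_A (log2 1.54 ± 0.14) and 57.6 and 50.9 against 131, 125 and 145 CPM for A06330_B (log2 1.3 ± 0.13). PRX1, the peroxiredoxin of mitochondria, had 85.1 and 77.9 against 168, 179.96 and 257 CPM for H02340_B (log2 1.31 ± 0.21) and rose by 1.05 ± 0.16 in B07620_A. CTT1, the catalase of the cytosol, fell, with 77.5 and 106 against 21.7, 19.2 and 23.8 CPM (B04860_N, log2 -2.09 ± 0.38). SKN7, a regulator of the oxidative stress response, changed by a log2 of -1.83 (A09900_B) and -1.1 (B09850_A). Changes of the 19 genes of the list ran from a log2 of -2.22 to 1.54. Of these 4 were upregulated (21.1%, against 3.6% of all annotated genes). Another 4 were downregulated (21.1%, near the 19.8% of all annotated genes). With the length trend removed 3 were upregulated and 3 downregulated. The increase of PRX1 in B07620_A fell short of the fold threshold with the length trend removed (0.83), without C18 replicate 3 and without LA18 replicate 3 (0.91 and 0.91).

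Glycolysis and alcohol fermentation fell. Of 12 genes tested 7 were downregulated and none upregulated (median log2 -1.74, and 7 with a median of -1.63 after removal of the length trend). The 7 genes code for enzymes of glycolysis. Pyruvate kinase, a homolog of CDC19, had the largest decrease of all genes that met the naming rule, with 453 and 294 CPM in control and 22.9, 27.6 and 26.00 CPM with lactic acid for F00120_A (14.6-fold lower, log2 -3.87 ± 0.20, adjusted p = 5.94e-08) and 547 and 334 against 31.2, 33.3 and 28.7 CPM for A00760_A (log2 -3.83 ± 0.21). Enolase had 8017 and 6186 against 821, 927 and 794 CPM for A08220_B (log2 -3.07 ± 0.17) and 10716 and 9128 against 1812, 1869.7 and 1666 CPM for J04500_A (log2 -2.48 ± 0.16). Every LA18 library was below both C18 libraries for these genes.

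Phosphoglucose isomerase, PGI1, changed by a log2 of -2.26 ± 0.21 (A04580_B) and -2.2 ± 0.19 (E04320_A). Phosphoglycerate mutase, GPM1, differed between homeologs: B08680_A had 3019 and 1929.9 against 1352, 985 and 731 CPM (log2 -1.27 ± 0.24), and A08660_B had 3597 and 2184 against 4169, 3855 and 2438 CPM (log2 0.27 ± 0.26), which did not pass the test and whose libraries overlapped. Without C18 replicate 1 the decrease of B08680_A was short of the fold threshold (log2 -0.94). Genes for the last steps of fermentation, looked up after the values were seen, fell as well. Pyruvate decarboxylase, PDC1, had 1156 and 998 against 213, 169 and 159.9 CPM for D03210_N (log2 -2.57 ± 0.15), and alcohol dehydrogenase, ADH1, had 7547 and 5459.8 against 817, 793 and 679.7 CPM for C04160_A (log2 -3.09 ± 0.18) and 7209.8 and 5009 against 1646, 1495 and 1207 CPM for D00840_B (log2 -2.08 ± 0.20). GSY1/GSY2 (O01000_N), glycogen synthase, had 82.5 and 145 against 9.48, 10.6 and 14.4 CPM (log2 -3.31 ± 0.43).

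Hexose transport and its regulators changed too. MIG1, the repressor that acts in high glucose, had 26.04 and 22.7 against 3.45, 4.05 and 1.94 CPM for B02140_A (log2 -2.93 ± 0.46) and 26.8 and 22.00 against 3.98, 3.98 and 3.10 CPM for G04490_B (log2 -2.71 ± 0.46). HXT7, a hexose transporter, had 1586 and 2214 against 809, 694 and 812 CPM for A01900_B (log2 -1.3 ± 0.16) and changed by a log2 of -1.49 in C07500_A. E05480_A, a homolog of the related repressors MIG2 and MIG3, rose, with 51.7 and 81.3 against 166, 150.4 and 209.8 CPM (log2 1.4 ± 0.21). Of 10 genes of this list 5 were downregulated and 1 upregulated, and 4 and 1 with the length trend removed, when HXT7 in A01900_B fell short of the fold threshold (-0.85).

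Both homeologs of HEM13 and a homolog of ROX1 were downregulated. HEM13, an oxygen-requiring enzyme of heme synthesis, had 436 and 198 against 39.5, 41.2 and 22.2 CPM for K01100_B (log2 -3.2 ± 0.39, adjusted p = 3e-05) and 507 and 227 against 47.8, 53.3 and 19.8 CPM for C01190_A (log2 -3.18 ± 0.48), with LA18 replicate 3 lowest in both. ROX1, the repressor of hypoxic genes, HEM13 among them in S. cerevisiae, had 97.1 and 70.1 against 8.49, 11.3 and 8.62 CPM for G02450_B (log2 -3.14 ± 0.38) and changed by a log2 of -2.49 in B04170_A. Of 14 genes listed under ergosterol, ROX1 among them, 6 were downregulated, and 4 with the length trend removed. ERG10, the first enzyme of the pathway, changed by a log2 of -2.63 (B02650_A) and -2.46 (G03980_B), whereas ERG1, squalene epoxidase, was at 433 and 316 against 408, 441 and 299 CPM in E03850_A (log2 0.03 ± 0.18).

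Most genes for proteins of the cell wall fell. Of 16 genes for mannoproteins and adhesins 11 were downregulated and none upregulated (median log2 -1.65, with 11 after removal of the length trend as well). Mannoproteins form the outer layer of the yeast wall. CCW12 had 4012 and 3904 CPM in control and 303, 331 and 358 CPM with lactic acid for D02090_N (log2 -3.58 ± 0.17, adjusted p = 5.42e-08) and 2899 and 2671 against 250.2, 258 and 267 CPM for F00840_N (log2 -3.43 ± 0.18). The PIR genes, whose products are bound to wall glucan, had 2201 and 2324 against 162, 169.8 and 186 CPM for O03120_N (PIR1, log2 -3.71 ± 0.22) and 1481 and 1569 against 117, 124 and 127 CPM for I03150_N (HSP150/PIR3, log2 -3.64 ± 0.17). The groups were fully apart for these 4 genes, which are outside the list count.

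Among the counted members TOS1 had 327 and 312 against 54.1, 61.8 and 58.5 CPM for B06600_A (log2 -2.46 ± 0.12) and changed by a log2 of -2.38 in H03390_B. PRY3 changed by a log2 of -2.19 (A07270_B) and -1.44 (J03570_A), and SRL1 by -1.97 (B06060_A) and -1.94 (H03930_B). Of 22 genes for glucan and chitin 11 were downregulated, and 4 with 2 upregulated once the length trend was removed. FKS1, the glucan synthase, is among the longest genes (5649 bp) and had 1565 and 1988 against 518, 494 and 490.2 CPM for A04790_N (log2 -1.83 ± 0.19, and -0.86 with the trend removed). BGL2, a glucanase of the wall, was downregulated in both settings, by a log2 of -1.46 and -1.55 for A06480_B.

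**Figure D3:**
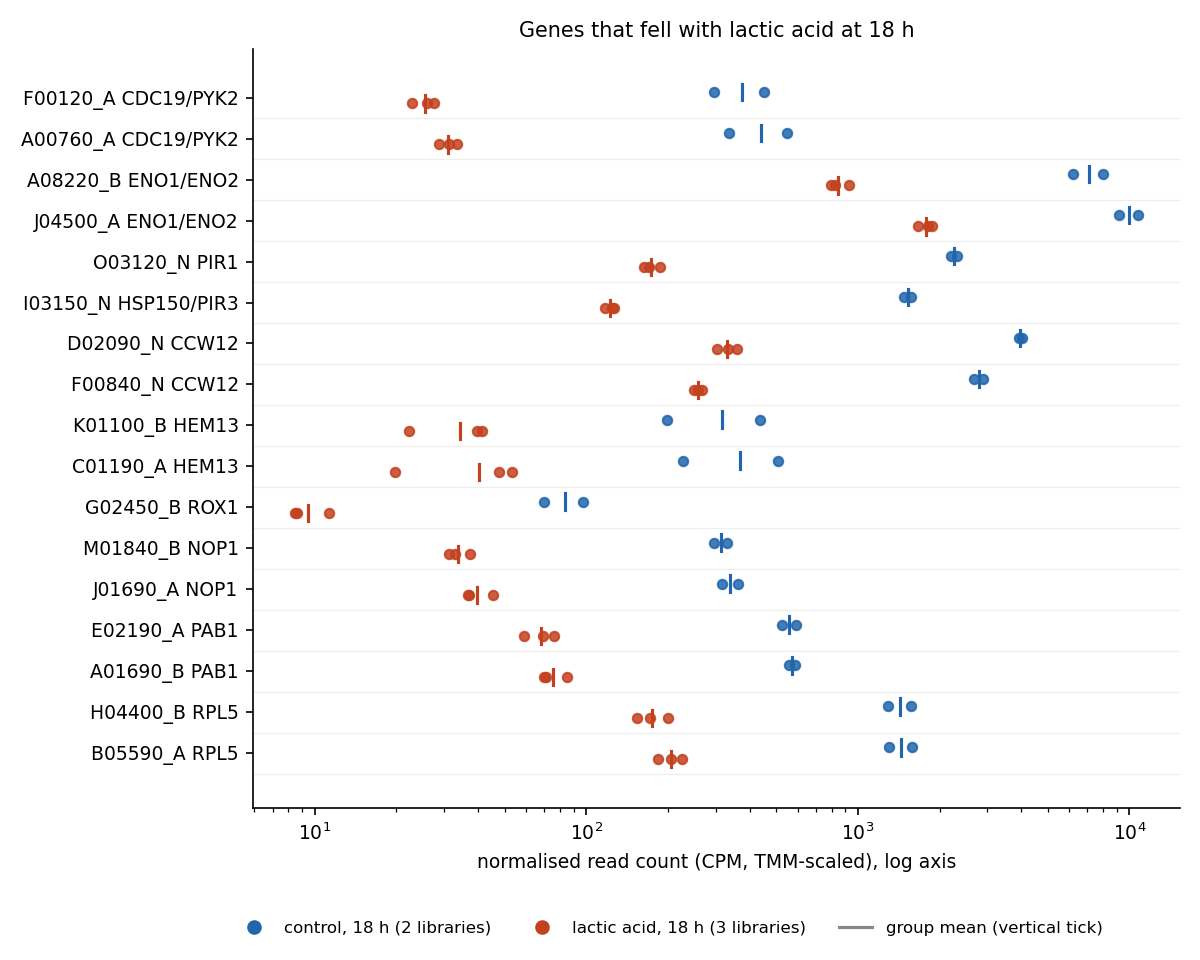
CPM at 18 h (horizontal log axis) of genes with a large decrease, in each of the 2 control and 3 lactic acid libraries (points), with group means (ticks). The lactic acid libraries lie below the control libraries for every gene shown, as in pyruvate kinase F00120_A (453 and 294 against 22.9, 27.6 and 26.00 CPM).

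In a list that joins weak acid export with Haa1 targets most genes were lower, but the exporter gene PDR12 did not change in B06630_N. Of 9 genes none was upregulated and 6 were downregulated (median log2 -2.03), and 1 and 6 with the length trend removed. The genes downregulated were the homeologs of PDR16 and VPS62 and of the ceramidases YPC1/YDC1, and PDR12 was not among them. PDR16, a lipid transfer protein, had 166 and 148 against 35.2, 31.4 and 39.7 CPM for G06250_B (log2 -2.15 ± 0.18) and 144 and 146 against 34.6, 32.5 and 39.8 CPM for B00370_A (log2 -2.03 ± 0.15). PDR12, the exporter of weak organic acid anions, had 35.7 and 34.4 against 39.9, 35.2 and 31.6 CPM for B06630_N (log2 0.02 ± 0.12) with overlapping libraries, and 100.1 and 99.2 against 55.3, 55.00 and 39.4 CPM for H03370_N (log2 -1.0 ± 0.16). With the length trend removed B06630_N was higher by 0.96 (edgeR, adjusted p = 8.05e-05). The homologs of HAA1 and CUP2 fell, with 148 and 154 against 34.8, 34.2 and 31.9 CPM for P01650_A (log2 -2.17 ± 0.27) and 101 and 111 against 30.2, 31.1 and 24.5 CPM for H05120_B (log2 -1.89 ± 0.28).

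Proton pump genes changed in both directions. Of 16 genes 4 were downregulated (25%, against 19.8% of all annotated genes), none upregulated and 11 higher (median log2 0.61). The 4 were both genes for VMA1, the catalytic subunit of the vacuolar ATPase, and both genes for VPH1, a subunit of its membrane sector. Without C18 replicate 1 there were 2 upregulated genes. VMA1 had 272 and 292 against 65.5, 62.2 and 66.9 CPM for G05560_A (log2 -2.12 ± 0.17), and VPH1 had 236 and 256 against 61.2, 58.02 and 56.2 CPM for H03180_B (log2 -2.07 ± 0.18). PMA1, the proton ATPase of the plasma membrane, was looked up after the values were seen. It had 4138 and 4206 against 992, 987 and 982 CPM for L01790_B (log2 -2.08 ± 0.17) and 3928 and 4206 against 1409, 1318 and 1298 CPM for C05130_A (log2 -1.6 ± 0.17), and with the length trend removed the decrease of C05130_A no longer passed the fold threshold (-0.81). VMA1 in B01070_A likewise fell short (-0.81 against -1.66), while 2 genes became upregulated.

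Genes of the osmotic and glycerol response were mostly lower. Of 15 genes 8 were downregulated (53.3%, against 19.8% of all annotated genes), and 3 with the length trend removed, when the median moved from -1.03 to -0.43. The list is of long genes (median 2061 bp), and in the longest group of genes by length 42.2% were downregulated. The glycerol phosphatase gene GPP2/GPP1 (B01620_N) had 1606 and 1229 against 469, 426 and 404 CPM (log2 -1.71 ± 0.19, -1.92 with the trend removed). Without C18 replicate 3 the count was 5. STL1, a glycerol symporter counted in no list here, had 4.88 and 4.85 against 21.02, 17.6 and 9.24 CPM for K00540_B (log2 1.71 ± 0.33).

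Of 44 genes for amino acid synthesis 13 were downregulated (29.5%) and 2 upregulated (4.55%, near the 3.6% of all annotated genes), and 8 and 3 with the length trend removed. The upregulated genes were the homeologs of LYS20/LYS21. LYS20/LYS21, the homocitrate synthase that begins lysine synthesis, had 297 and 245 CPM in control and 1361, 1389.7 and 708 CPM with lactic acid for G05520_B (log2 2.09 ± 0.26) and 299 and 244 against 1229, 1223 and 649.7 CPM for B01110_A (log2 1.93 ± 0.25). ARG7, an enzyme of ornithine synthesis looked up after its values were seen, had 52.6 and 55.5 against 263, 281 and 134 CPM for K00550_B (log2 2.07 ± 0.26). In these genes replicate 3 was again the lowest LA18 library but above both controls.

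Both homeologs of GCV2, the glycine decarboxylase of the glycine cleavage system, were downregulated, with 636 and 684 against 86.4, 88.9 and 115 CPM for A03520_B (log2 -2.77 ± 0.16) and 232 and 319 against 36.7, 35.6 and 61.7 CPM for E05370_A (log2 -2.63 ± 0.22). Asparagine synthetase, ASN1/ASN2, had 647 and 581 against 98.7, 105 and 93.4 CPM for H01970_B (log2 -2.63 ± 0.16). Of 16 genes for purines and one-carbon units 7 were downregulated (43.8%) and none upregulated, and 6 were downregulated with the length trend removed. ADE2 had 322 and 319 against 64.7, 58.4 and 61.6 CPM for A09330_B (log2 -2.38 ± 0.14), and ADE16/ADE17 changed by a log2 of -2.47 (A01010_B) and -1.7 (E02860_A).

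Most cytosolic ribosomal protein genes were slightly higher, whereas a few fell steeply. Of 79 genes 56 were higher and 11 lower, none was upregulated and 7 were downregulated (median log2 0.57, and 0.19 with the length trend removed). Over all genes tested 35.5% were higher. The list is of short genes (median 555 bp), and its median was near the 0.52 of the shortest group of genes by length. With the length trend removed it was near the 0.16 of all genes tested. Without C18 replicate 1 there were 4 upregulated genes, and with library totals in place of TMM 7. With all 12 libraries, the C18 library of 4606 counts included, there were 21. The list held 7.60% and 6.34% of the counts in C18 and 10.2% to 10.5% in LA18. RPL5 of the large subunit had 1565 and 1288 CPM in control and 154, 171 and 199 CPM with lactic acid for H04400_B (log2 -3.03 ± 0.15, adjusted p = 5.94e-08) and 1578 and 1307 against 184, 205 and 224 CPM for B05590_A (log2 -2.82 ± 0.15). RPL17 had 772 and 656 against 158, 120.02 and 152 CPM for G04940_B (log2 -2.32 ± 0.15) and changed by a log2 of -2.22 in B01680_A. The groups were fully apart for these 4 genes, and their decrease was as large with the length trend removed (-3.14 for H04400_B and -2.66 for G04940_B).

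PAB1 and NOP1 were downregulated in both homeologs. PAB1, which binds the poly(A) tail, had 592 and 527 against 58.9, 69.1 and 75.9 CPM for E02190_A (log2 -3.04 ± 0.19) and 586 and 559 against 69.6, 70.99 and 84.99 CPM for A01690_B (log2 -2.93 ± 0.15). NOP1, the methylase of ribosomal RNA in the nucleolus, had 330.4 and 294 against 31.3, 32.9 and 37.3 CPM for M01840_B (log2 -3.21 ± 0.12) and 362 and 316 against 36.9, 36.7 and 45.3 CPM for J01690_A (log2 -3.1 ± 0.13). Of 26 genes for P-bodies and stress granules, sites where transcripts are stored or decayed, 14 were downregulated and 1 upregulated, the TIS11 homolog B07350_A named above. With the length trend removed 10 were downregulated. Of 21 genes for translation factors 4 were downregulated (19%) and 7 higher, and of 96 genes for ribosome biogenesis 12 were downregulated (12.5%) and 19 higher, shares below the 19.8% of all annotated genes. With the length trend removed 3 translation factor genes were downregulated and 2 upregulated, and 5 and 6 genes for ribosome biogenesis. PUB1, another member of the P-body and stress granule list, had 87.05 and 83.3 against 13.6, 14.4 and 15.9 CPM for B02810_A (log2 -2.54 ± 0.22).

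Both homeologs of PIL1, the main component of eisosomes under the plasma membrane, were downregulated, with 1009 and 962 against 108, 112 and 147 CPM for B04830_B (log2 -3.01 ± 0.39) and 983 and 940.1 against 144, 146 and 198 CPM for G01740_A (log2 -2.56 ± 0.31). Of 42 genes for the actin cortical patch and the cortex 17 were downregulated, and 13 with the length trend removed, when the median moved from -0.35 to 0.08. Of 23 chaperone genes 5 were downregulated (21.7%, near the 19.8% of all annotated genes) and none upregulated, and 4 were downregulated with the length trend removed. HSC82/HSP82 (A03620_N), the Hsp90 chaperone, had 1042 and 1392 against 172, 143 and 217 CPM (log2 -2.78 ± 0.21).

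**Figure D4:**
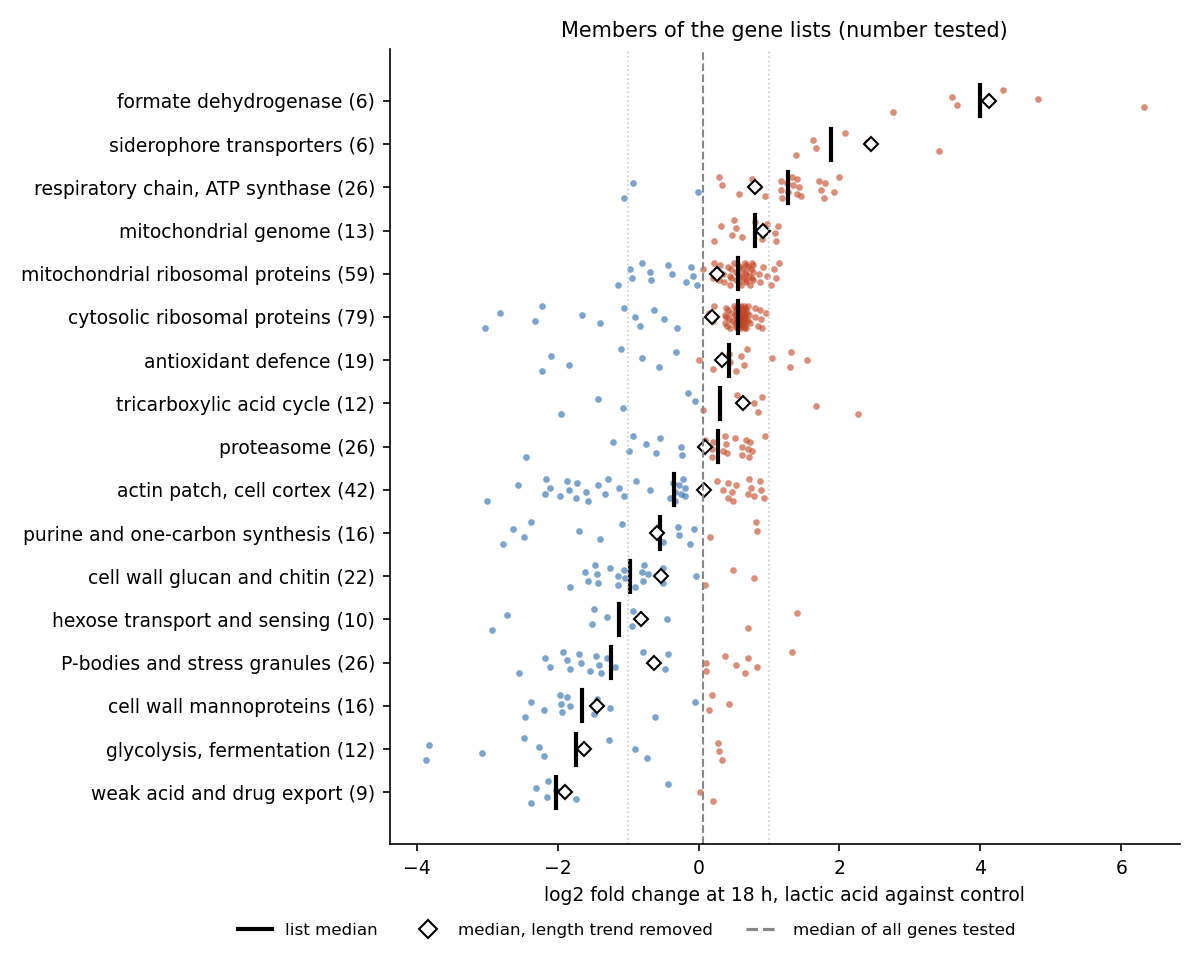
Log2 fold change at 18 h (horizontal axis) of each member of the gene lists (points, coloured by sign), with the list median (bar), the median after removal of the length trend (diamond), the median of all genes (dashed line) and the fold threshold (dotted lines). Formate dehydrogenase genes (4.0) and siderophore transporters (1.88) have the highest medians of the lists shown. The list labelled weak acid and drug export, which also holds Haa1 targets, has the lowest (-2.03).

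Homeologs were compared in the pairs at hand, which cover a part of the genome in gene order. Pairs known only from the study's lists of changed genes entered the ratio test and its adjustment of p-values, but not the counts here. Of 2524 of these pairs with both genes tested, 49 had both upregulated and 390 both downregulated, 75 and 233 had only 1 member past the thresholds upward or downward, and none had its members called in opposite directions. Pearson's r of the A and B log2 fold changes was 0.867, a description across pairs that share the libraries, and their median absolute difference was 0.23. The ratio of A to B was tested with limma on log2 ratios. Of 2529 pairs at hand that were tested it changed in 914 (36.1%), 499 toward A and 415 toward B. A change of at least 1 on the log2 scale was found in 139 pairs (5.5%), 76 toward A and 63 toward B. Without C18 replicate 1 or 3 the changes toward B numbered 270 and 256. The pairs that follow were picked as examples after their values were seen. GPM1 shifted away from A (B08680_A, log2 ratio change -1.56 ± 0.12, adjusted p = 1.42e-05). MDH2, the malate dehydrogenase of the cytosol, shifted in the same direction (C03370_A, -1.43 ± 0.16): the A gene had 93.5 and 63.1 against 62.7, 62.8 and 48.6 CPM and its homeolog A02540_B 94.1 and 62.5 against 166, 181 and 125 CPM.

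**Figure D5:**
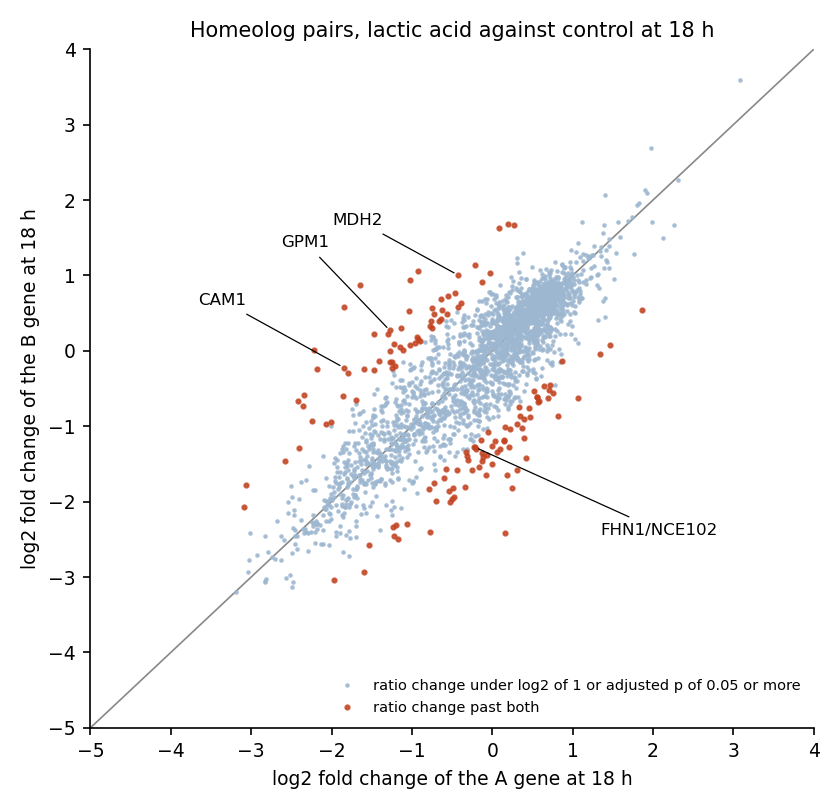
Log2 fold change at 18 h of the B gene (vertical axis) against that of the A gene (horizontal axis) for the homeolog pairs tested, in red where the ratio changed by at least 1 on the log2 scale with an adjusted p below 0.05. The pairs lie along the diagonal (Pearson's r of 0.867), and the labelled pairs are examples past both thresholds.

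Genes with an identical copy were measured apart, from reads with exactly 2 placements, each reported on 1 of them at random. The values of a pair therefore mirror each other and cannot be assigned to a copy. Of 230 such genes 20 were upregulated (8.7%) and 41 downregulated (17.8%). The neutral amino acid permease genes I00100_B and O00100_B led, with 609 and 850.3 CPM in control and 8606, 9922 and 15234 CPM with lactic acid for I00100_B (log2 3.95 ± 0.29, adjusted p = 7.92e-07), on the scale of these counts alone. A gene annotated as Cu,Zn superoxide dismutase, P02820_A, had 213 and 261 against 1783, 2046 and 2334 CPM (log2 3.11 ± 0.25), and its copy H06290_A rose by 2.9. N00130_N, annotated as arsenical resistance 3, rose by 2.76 ± 0.46. The groups were fully apart for these genes. RPG1, a subunit of initiation factor 3, fell, with 13362 and 14417 against 1988, 1956 and 1916 CPM for F04680_B (log2 -2.83 ± 0.10), and BCH1/BUD7, for cargo export from the Golgi, changed by a log2 of -2.39 (M03730_A).

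The response at 18 h was set against that at 42 h, after the diauxic shift, by the interaction of time and lactic acid in the same model. It passed an adjusted p of 0.05 in 5202 genes (53.7%), and the response at 18 h was the higher in 2407 genes (24.9% of those tested) and the lower in 2795 (28.9%), against 4630 and 1256 with library totals in place of TMM. Of the 26 leading and formate dehydrogenase genes 21 differed between the times. I01900_B had a log2 fold change of -0.07 at 42 h, and its responses differed by 6.39 ± 0.28. For pyruvate kinase F00120_A the change was -0.51 at 42 h (difference -3.36 ± 0.26), and for HEM13 in K01100_B it was 0.21 (difference -3.41 ± 0.52). In F06230_N, a fructose facilitator, no difference passed the test: the change was 3.2 at 42 h and the difference -0.11 ± 0.27.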

How the data were processed

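RNA was sequenced from rRNA-depleted libraries of Z. parabailii. The authors aligned reads allowing no mismatch (Bowtie 1.1.2), which separates homeologs, and assigned them to genes in HTSeq 0.6.0, discarding reads placed on several sites. The deposited full and duplicated tables hold raw counts, duplicated counts being reads with exactly 2 placements. The authors' normalized table holds a signal, CPM of the TMM-scaled library size (edgeR 3.18.1), which the CPM recomputed here equal, and the RPKM values deposited for duplicated genes are scaled by coding length and duplicated totals.

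The test took genes that reached 1 CPM in 3 libraries of any condition (9683 of 10085, 14 pseudogene and plasmid entries left out) with edgeR 4.0.16 in R 4.3.3, in 1 model of 4 groups and 11 libraries. Homeolog ratios (pseudocount 0.5, at least 10 counts per pair and library) were tested with limma 3.58.1. Fits were also run on simulated counts in which few genes changed, as many up as down. That run cannot show how the fits do where many genes change, mostly downward. The length trend is a spline with 5 degrees of freedom per library, on gene lengths of the RefSeq assembly. Alternatives were limma-voom, DESeq2 1.42.0, RLE factors, library totals, other filters, all 12 libraries, glmTreat, a replicate block, libraries left out, and, for duplicated genes and ratios, other totals, pseudocounts and minimum counts. Those for the comparison of times other than limma-voom and the block were added after the data were seen.

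The members, gene lists and tests were chosen with earlier results of these data known. Named genes are the 12 with the largest change in each direction (past both thresholds, no overlap of libraries, a group mean of at least 10 CPM), up to 4 called and 2 uncalled members per list, genes the study names, the 5 duplicated genes with the largest change in each direction, and homeologs of these. Named outside that rule, after their values were seen, were PGI1, LYS20/LYS21, ARG7, SDH2, PRX1, NDI1, HMX1, PDC1, ADH1 and PMA1. Names of genes outside the part of the annotation at hand are known from the study's lists of changed genes, so such genes enter no list count except the lists of formate dehydrogenases and siderophore transporters. An item withheld for evaluation is not reported here.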

Additional observations from a re-analysis of the deposited data

Results flagged for a closer look

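The response to lactic acid differed between 18 h and 42 h in 21 of the 26 leading and formate dehydrogenase genes, by the test of the interaction of time and lactic acid (edgeR quasi-likelihood test, adjusted p below 0.05, against 53.7% of all genes tested). Values are the log2 fold change at 18 h minus that at 42 h with its approximate SE, and the genes were chosen for their size at 18 h, so a difference in the same direction is partly fixed by that choice.

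The formate dehydrogenase genes had the response at 18 h above that at 42 h in all 6: 7.07 ± 0.27 in F04070_N, 6.39 ± 0.28 in I01900_B, 6.28 ± 0.50 in N02280_N, 4.24 ± 0.21 in O01850_A, 3.78 ± 0.60 in H05680_N and 2.02 ± 0.44 in P02220_N. At 42 h the log2 fold change of these genes lay between -2.74 (F04070_N) and 0.74 (P02220_N). D07410_N differed by 5.97 ± 1.62, a difference that no longer passed without C18 replicate 1. The multidrug transporter F06180_N differed by 2.85 ± 0.26 and the fructose facilitator N00190_A by 2.16 ± 0.37.

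Among the genes that fell, the difference was -3.36 ± 0.26 and -3.45 ± 0.27 for pyruvate kinase (F00120_A and A00760_A), -3.41 ± 0.52 and -3.52 ± 0.63 for HEM13 (K01100_B and C01190_A), -3.17 ± 0.56 for glycogen synthase (O01000_N) and -3.02 ± 0.50 for ROX1 (G02450_B). For the wall proteins it was -2.19 ± 0.28 for PIR1 (O03120_N), -2.06 ± 0.22 for HSP150/PIR3 (I03150_N), -1.89 ± 0.22 and -1.82 ± 0.24 for CCW12 (D02090_N and F00840_N), and for NOP1 -1.87 ± 0.16 and -1.85 ± 0.17 (M01840_B and J01690_A).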

How the results depend on the processing

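The 1917 values of genes named in the report under other settings were scored against the main fit. Genes past both thresholds had to stay past both. Other genes, and all duplicated ones, had to stay on their side of the adjusted p alone. By this rule 1865 values were the same, 51 fell short, 1 newly passed and 0 reversed. The rule does not register a gene that was only higher or lower and newly reached the fold threshold. Nor does it register a change of sign in a gene that passed in neither fit. The number of upregulated genes moved from 412 to 1041 with library totals without TMM, 981 with all 12 libraries, 149 with glmTreat against a minimum of 2-fold and 705 with the length trend removed, and the number of downregulated genes from 2000 to 1182 with glmTreat and 1240 with the length trend removed. DESeq2 gave 593 upregulated and 1842 downregulated genes. Leaving out 1 library gave 376 to 571 upregulated and 1888 to 2111 downregulated genes. With library totals of the full counts 32 duplicated genes were upregulated in place of 20. Homeolog ratios changed toward B in 415 pairs, and in 256 to 359 when 1 library was left out. The response at 18 h was above that at 42 h in 2407 genes and below it in 2795, and with library totals in 4630 and 1256. The causes of these shifts were not tested, except that glmTreat is stricter by construction.

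Replicate numbers are shared between the groups, but the sources do not say that a number marks a shared culture or day. Deviations of same-numbered libraries had correlations of 0.185 (replicate 1) and 0.294 (replicate 3), and C18 replicate 1 and LA18 replicate 2 had 0.255. With 2 controls their deviations mirror each other, so these correlations cannot decide whether the numbers pair the samples. With the replicate block 420 genes were upregulated and 1993 downregulated. With C18 left at 1 library its spread is taken from the other groups. Low counts limit genes such as the formate dehydrogenases H05680_N and P02220_N, whose control levels lay below 1 CPM.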
